A study of Mus musculus with 6 samples.

Results

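The catenins and the classical cadherins are the core proteins of adherens junctions, and their transcripts were compared between blood progenitors of IkL/L and wild-type (WT) mice. The set held 8 genes: Ctnnd1, Ctnna1, Ctnnb1, Jup, Ctnnal1, Ctnnbip1, Cdh1 and Cdh2. Members were taken as every probe set that the annotation of the array assigned to a single listed gene, which gave 18 probe sets of the 45037 on the array and all 8 genes among the 18193 that could be read. A probe set is a group of short probes that together report the transcripts of a gene. Each gene was read from its probe set with the highest mean over all arrays, and the other probe sets of the gene are given beside it.

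RNA came from LSK cells, the bone marrow fraction without lineage markers that carries Sca1 and c-Kit and contains stem cells and multipotent progenitors. Mice were C57BL/6 and 6 to 7 weeks old, and each genotype had 3 arrays. The IkL/L mice carry a hypomorphic germline mutation of Ikzf1 on both alleles, so that every cell carries the mutation, and neither group was treated. The study, citing earlier work, puts functional Ikaros protein in IkL/L cells far below WT. Arrays do not measure protein. Each WT sample was 1 mouse, while cells of 2 IkL/L mice were pooled for each mutant sample, and 100 ng of total RNA was labelled in a 2-cycle reaction. The number of mice per sample and genotype cannot be told apart. Nothing in the labels says that samples of a genotype came from separate litters or sorts, and p-values here measure the spread between these samples.

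The values are log2 RMA values, in which a difference of 1 is a doubling, and every difference below is IkL/L minus WT. RMA gives no detection call, so levels are described against the medians of the arrays, which lay between 4.79 and 4.88. Ikzf1 itself gave 11.57, 11.59 and 11.44 on the WT arrays and 10.77, 10.85 and 10.93 on the IkL/L arrays, a log2 difference of -0.68 (limma, Benjamini-Hochberg adjusted p = 0.0307). Its other probe set, 1421303_at, also above the medians on every array, gave -0.21 without passing (limma, adjusted p = 0.622). The groups of that probe set lay apart in the same direction. Correlations between arrays ran from 0.986 to 0.995. The WT 2 array stood apart on the first principal component, at -52.7 against -18.6 and 3.60 for the other WT arrays and 19.6 to 28.0 for the IkL/L arrays. Of the LSK markers with a single-gene probe set, 6 of the 8 listed, all lay above the medians on every array and 0 passed the test, with p under 0.05 before adjustment for 1 higher and 2 lower (limma). Among them Flt3, a receptor of multipotent progenitors, gave a difference of -0.88 (adjusted p = 0.132), the stem cell marker Procr gave 0.69 (adjusted p = 0.409) and the transcription factor Hlf gave -0.59 (adjusted p = 0.447).

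Classical cadherins span the membrane and bind cadherins of the neighbouring cell. Inside the cell, p120 catenin (Ctnnd1) holds the cadherin at the surface, while beta-catenin (Ctnnb1) or plakoglobin (Jup) links the cadherin tail to alpha-catenin (Ctnna1), which binds actin. Beta-catenin that is not bound at junctions also carries the Wnt signal into the nucleus with TCF and LEF factors, and in blood progenitors it has been studied mainly in that role. The study reported less of the repressive histone mark H3K27me3 at Ctnnd1 and Ctnna1 in IkL/L than in WT thymocytes of younger mice. It placed both in a group where the mark was weak or absent in WT LSK cells and alike in IkL/L LSK cells. Their place in the set is therefore not independent evidence of a direction.

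Of the 8 genes, Ctnnd1 alone passed the test and it was higher in IkL/L cells, while 0 were lower. Across all genes 0.748% were called higher, 0.242% lower and 0.989% in either direction by the same test (limma, adjusted p under 0.05), so that 1 of 8 is a count of a single gene. Differences of the 8 genes ran from -0.06 to 0.79, with 6 above 0 and 2 below, of which Ctnnb1 moved to just above 0 when arrays were centred on their medians. Their median was 0.12, beside -0.02 over all genes, of which 44.5% lay above 0. Without adjustment 3 of 8 genes had p under 0.05 (limma) and all 3 were higher, against 5.83% of all genes. They were Ctnnd1, Ctnnal1, whose groups lay only 0.020 apart, and Cdh1, which lay below the medians on all arrays. At the level of probe sets, 1 of 18 was called higher, where 0.424% of all probe sets were. The WT and IkL/L arrays did not overlap for 4 of the 18 probe sets, all higher in IkL/L, where 6.06% of all probe sets lay apart in that direction. These 4 belonged to the same 3 genes, with 2 probe sets from Ctnnd1. None of the 18 lay apart in the lower direction, where 8.36% of all probe sets did. Members were chosen with earlier results of these data known, so these counts and shares are not independent evidence of a rise.

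**Figure D1:**
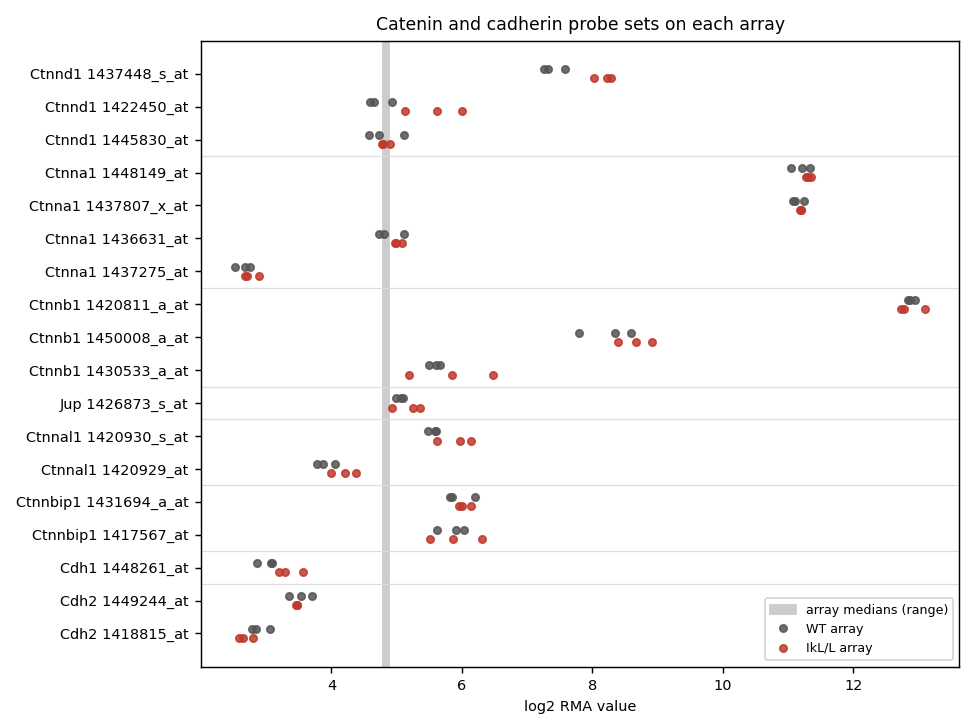
Every probe set of the 8 genes on each of the 6 arrays. The horizontal axis is the log2 RMA value, grey points are the 3 WT arrays, red points the 3 IkL/L arrays, and the grey band spans the array medians from 4.79 to 4.88. The 3 IkL/L points of Ctnnd1 1437448_s_at (8.02 to 8.28) all lie to the right of its 3 WT points (7.26 to 7.58), while the points of Ctnna1 1448149_at and Ctnnb1 1420811_a_at overlap.

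Ctnnd1 encodes p120 catenin, which slows the uptake of cadherins from the surface. Its probe set 1437448_s_at gave 7.26, 7.33 and 7.58 on the WT arrays and 8.02, 8.22 and 8.28 on the IkL/L arrays. The lowest IkL/L array lay 0.44 above the highest WT array, a gap wider than the range within WT (0.319) or within IkL/L (0.265). The mean rose from 7.39 ± 0.168 to 8.17 ± 0.139 (SD, n = 3 each). This was a log2 difference of 0.79 with a standard error of 0.123, or 1.72-fold with a 95% interval of 1.42 to 2.10 (limma, adjusted p = 0.0432). In sorted cells measured in bulk, a change in the amount of RNA per cell and a change in the share of cells that carry it cannot be told apart.

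The other probe sets of Ctnnd1 differed in what they showed. Probe set 1422450_at gave 4.92, 4.60 and 4.66 on the WT arrays and 5.13, 5.61 and 6.00 on the IkL/L arrays. The groups did not overlap, but the WT values lay at the array medians and the IkL/L arrays spread over 0.868, and the difference of 0.86 (95% interval 0.37 to 1.34) did not pass (limma, adjusted p = 0.196). The third, 1445830_at, gave 4.73, 5.11 and 4.57 in WT and 4.89, 4.79 and 4.78 in IkL/L. Its groups overlapped at the level of the medians, with a difference of 0.02 (limma, adjusted p = 0.987). Where on the Ctnnd1 transcripts these probe sets lie is not given in the sources used here, and the suffix s marks probe sets that match several transcripts.

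The call of Ctnnd1 stood close to the threshold. With each array centred on its median it was lost (0.80, adjusted p = 0.0597), and it was lost without any single array other than WT 3: the difference was then 0.72 to 0.86 with limma's adjusted p from 0.109 without IkL/L 1 to 0.203 without WT 1. Without WT 2, the array that stood apart, the difference was 0.76 (limma, adjusted p = 0.114).

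Promoter sequence was given for 5 of the 8 genes, in 8 windows, from the RefSeq table of GRCm38.p6; Ctnna1, Cdh1 and Cdh2 had no entry. The 250 bases before the start are printed for Ctnnd1, the gene that passed, and for Ctnnb1, none of whose probe sets passed, to set the stretches before a catenin that passed and a catenin that did not side by side. Ikaros binds DNA around the letters GGGAA, and AGGAA differs from it in its leading base. Capitals mark AGGAA on either strand, which reads TTCCT where it lies on the opposite strand. The Ctnnd1 window is chr2:84658978-84659227 on the minus strand and the Ctnnb1 window is chr9:120933150-120933399 on the plus strand, each written 5′ to 3′ in the direction of its gene.
Ctnnd1: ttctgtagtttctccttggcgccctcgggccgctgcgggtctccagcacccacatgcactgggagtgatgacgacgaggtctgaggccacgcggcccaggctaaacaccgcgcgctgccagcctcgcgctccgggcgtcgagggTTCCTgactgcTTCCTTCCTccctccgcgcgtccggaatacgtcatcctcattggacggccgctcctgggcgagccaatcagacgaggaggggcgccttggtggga
Ctnnb1: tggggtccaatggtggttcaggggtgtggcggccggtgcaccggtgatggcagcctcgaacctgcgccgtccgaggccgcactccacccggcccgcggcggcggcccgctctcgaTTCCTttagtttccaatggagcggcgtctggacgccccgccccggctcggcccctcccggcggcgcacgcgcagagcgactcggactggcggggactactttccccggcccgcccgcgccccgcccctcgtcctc
The Ctnnd1 window held 3 matches to AGGAA, which began 106, 95 and 91 bases before the start, the last pair sharing a base, and 0 matches to GGGAA. The Ctnnb1 window held 1 match to AGGAA, 135 bases before the start, and 1 match to GGGAA, 35 bases before it. All of these lay on the strand opposite to the gene. Among 32851 windows of the same length, 60.3% held AGGAA and 56.2% held GGGAA on at least 1 strand, so that either is common. GC content was 66.8% for Ctnnd1 and 74.8% for Ctnnb1. Counts varied as much between windows of a gene: the second Ctnnd1 window, chr2:84650741-84650990, held 6 matches to the motif in capitals and 0 to the other at a GC content of 40.0%, and the second Ctnnb1 window held 0 and 1. The windows of Ctnnbip1, which did not pass, held 1 and 2 matches to the motif in capitals and 1 each to the other, and those of Ctnnal1 and Jup held 0 of either. No contrast between genes that passed and did not is drawn from these counts. A match describes letters and is no evidence of binding, and its absence from 1 window says nothing of the factor.

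Ctnna1, alpha-catenin, ties the cadherin complex to actin filaments. Probe set 1448149_at gave 11.34, 11.21 and 11.05 on the WT arrays and 11.35, 11.27 and 11.31 on the IkL/L arrays. All 6 values lay more than 6 log2 units above the array medians, and the IkL/L values fell at the upper end of the WT range and just beyond it. The difference of 0.11 did not pass (95% interval -0.13 to 0.36, a fold of 0.913 to 1.28, limma, adjusted p = 0.823). Probe set 1437807_x_at was as far above the medians and gave a difference of 0.05 (-0.16 to 0.27), with all 3 IkL/L arrays between 11.18 and 11.20. The remaining probe sets lay at the medians (1436631_at, difference 0.13) or below them on every array (1437275_at, 0.11). All 4 overlapped between the genotypes.

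Ctnnal1 encodes alpha-catulin, a relative of alpha-catenin and vinculin. Probe set 1420930_s_at gave 5.60, 5.48 and 5.58 on the WT arrays and 5.97, 6.15 and 5.62 on the IkL/L arrays. The groups did not overlap, but only 0.020 separated IkL/L 3 from the highest WT array. The difference of 0.36 (95% interval 0.03 to 0.69) did not pass, with an adjusted p of 0.509 in limma. Probe set 1420929_at, below the medians on all arrays, gave 0.29 with overlapping groups (limma, adjusted p = 0.589).

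Ctnnb1, beta-catenin, had 3 probe sets and none passed. The probe set 1420811_a_at gave 12.84, 12.87 and 12.94 on the WT arrays and 13.10, 12.78 and 12.73 on the IkL/L arrays. The IkL/L arrays fell on either side of the WT arrays, 1 above and 2 below all of them. The difference was -0.01 with a 95% interval of -0.29 to 0.26, or 0.819 to 1.20-fold (limma, adjusted p = 0.987). Probe set 1450008_a_at gave 8.35, 7.80 and 8.59 in WT and 8.91, 8.40 and 8.67 in IkL/L, a difference of 0.41 (-0.08 to 0.90, limma, adjusted p = 0.651). Here the WT 2 array was the lowest and the groups overlapped. Probe set 1430533_a_at gave 5.60, 5.50 and 5.66 in WT and 5.85, 5.19 and 6.48 in IkL/L. Its difference of 0.25 (limma, adjusted p = 0.853) was far smaller than the range of 1.29 within the IkL/L arrays. The direction for beta-catenin therefore depended on how the gene was read: the mean of its probe sets gave 0.22 in place of -0.01, and neither passed.

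Jup, plakoglobin, can take the place of beta-catenin at adherens junctions and is a part of desmosomes. Its only probe set, 1426873_s_at, gave 5.07, 5.09 and 4.98 on the WT arrays and 4.93, 5.25 and 5.36 on the IkL/L arrays. These values lay just above the medians and overlapped, with IkL/L 1 the lowest of all 6, and the difference was 0.13 (-0.16 to 0.42, limma, adjusted p = 0.832). Ctnnbip1 encodes ICAT, an inhibitor that keeps beta-catenin from binding TCF factors. Its probe set 1431694_a_at gave 5.81, 6.21 and 5.85 in WT and 6.00, 5.95 and 6.14 in IkL/L. All IkL/L arrays lay within the WT range, and the difference was 0.07 (-0.23 to 0.37, limma, adjusted p = 0.915). The other probe set, 1417567_at, gave 0.05 and overlapped as well.

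Cdh1 and Cdh2, the epithelial and neural cadherins, lay below the array medians on all 6 arrays, where a level cannot be told from background, so no fold is given and their differences describe the log2 RMA values only. Cdh1 gave 2.86, 3.07 and 3.10 on the WT arrays and 3.20, 3.57 and 3.30 on the IkL/L arrays. The groups lay apart by 0.105 and the log2 difference was 0.35 (0.05 to 0.64), which did not pass (limma, adjusted p = 0.471). Cdh2 gave 3.70, 3.53 and 3.36 in WT and 3.47, 3.46 and 3.47 in IkL/L with probe set 1449244_at. The IkL/L arrays sat inside the WT range, and the difference was -0.06 (-0.32 to 0.19, limma, adjusted p = 0.911). Its other probe set, 1418815_at, gave -0.22 (-0.48 to 0.04, adjusted p = 0.651), the lowest difference among the 18 probe sets, with groups that overlapped.

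**Figure D2:**
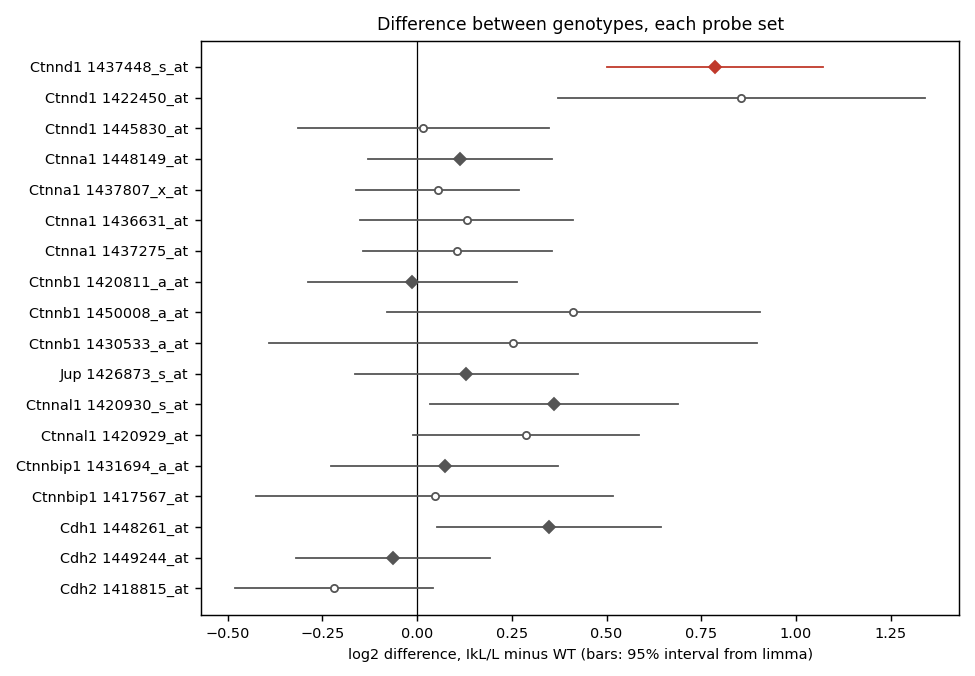
Difference between the genotypes for every probe set of the 8 genes. The horizontal axis is the log2 difference, IkL/L minus WT, bars are 95% intervals from limma, filled diamonds mark the probe set from which the gene was read and open circles the others, and red marks an adjusted p under 0.05. Ctnnd1 1437448_s_at at 0.79 is the 1 red mark, and the intervals of 14 of the 18 probe sets hold 0.

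Among the 6 genes above the medians on all arrays, the order of the differences was Ctnnd1 (0.79), Ctnnal1 (0.36), Jup (0.13), Ctnna1 (0.11), Ctnnbip1 (0.07) and Ctnnb1 (-0.01). Cdh1 and Cdh2, which cannot be told from background, were not ranked. The interval of Ctnnd1 (0.50 to 1.07) overlapped that of its neighbour Ctnnal1 (0.03 to 0.69), and each gene further down overlapped the next. Differences between genes were not tested. For the probe sets from which Ctnna1 and Ctnnb1 were read, both far above the medians, the 95% intervals lay between 0.819-fold and 1.28-fold. That of Ctnnb1 1450008_a_at, also above the medians on all arrays, ran from 0.946-fold to 1.87-fold.

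The genes nearest to Ctnnd1 in pattern were sought among 9231 genes with a mean of at least 6, by the distance between their 6 values after each gene's WT mean was taken off. They were Stom (distance 0.178), which encodes the membrane protein stomatin, the transcription factor gene Batf2 (0.206) and Cd300a (0.216), which encodes an inhibitory receptor of leukocytes. The median distance over all genes compared was 1.44. Stom gave 8.05, 8.09 and 8.42 on the WT arrays and 8.89, 8.89 and 9.16 on the IkL/L arrays, with WT 3 the highest WT array as for Ctnnd1. Its difference of 0.79 did not pass (limma, adjusted p = 0.0585), while those of Batf2 (0.75, adjusted p = 0.0182) and Cd300a (0.81, adjusted p = 0.016) did. Among the other Stom probe sets, 1419097_a_at gave 0.61 with groups that lay apart, and the rest overlapped at -0.17 to 0.26. Cd300a 1445292_at gave 0.04 and overlapped. The distance includes the difference between the genotypes itself, so that genes with a like difference lie near each other.

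**Figure D3:**
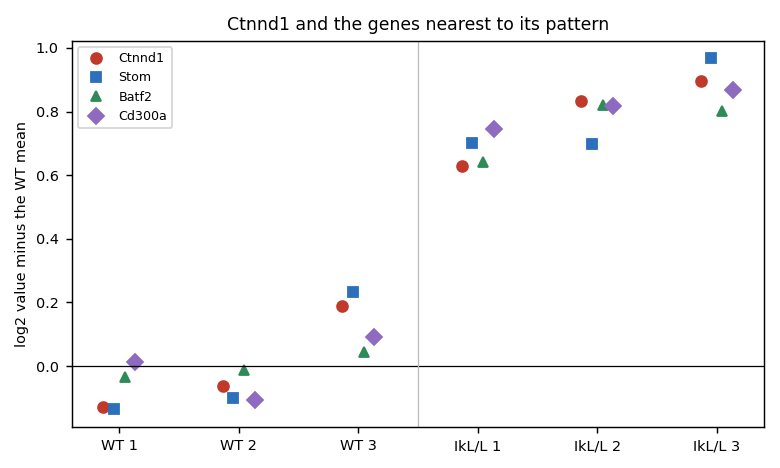
Ctnnd1 and the 3 genes nearest to it in pattern. The vertical axis is the log2 value of each array minus the mean of the gene's 3 WT arrays, and the horizontal axis lists the 6 arrays. Red circles are Ctnnd1, blue squares Stom, green triangles Batf2 and purple diamonds Cd300a, and all 4 genes are higher on every IkL/L array than on any WT array.

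Genes that work with the catenins and cadherins were taken as 9 lists of 122 genes in all, of which 117 had a single-gene probe set. Of these 4 passed and all 4 were higher in IkL/L cells: Cdh5, Actn1, Lima1 and Id2. That is 3.42% of those measured, beside 0.989% of all genes in either direction, and the median over the 117 was -0.01, beside -0.02 over all genes. The lists were chosen with earlier results of these data known, so this share is not independent evidence of a rise. The 4 came from 3 of the 9 lists, and each of them passed with 1 of its probe sets only.

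Among 14 other classical cadherins, 1 passed, higher, and 10 lay below the medians on all arrays. Before adjustment 1 was higher and 1 lower at p under 0.05 (limma). The lower gene was Cdh15 (-0.23), named after its values were seen. The gene that passed was Cdh5, VE-cadherin, the cadherin of endothelial junctions, which binds p120 catenin. Cdh5 gave 3.98, 3.60 and 3.89 on the WT arrays and 6.34, 6.67 and 5.97 on the IkL/L arrays. All WT values lay below the medians and all IkL/L values above them, and the log2 RMA values differed by 2.50 (2.08 to 2.93, limma, adjusted p = 0.00274). Since the WT level cannot be told from background, the size of this rise is uncertain and no fold is given. Its second probe set, 1422047_at, stayed below the medians and gave 0.19 (limma, adjusted p = 0.719). Of the 8 other catenins 0 passed, though 1 was lower at p under 0.05 before adjustment (limma). The lower gene was Arvcf, named after its values were seen. It lay above the medians on all arrays and gave -0.44 with overlapping groups (limma, adjusted p = 0.528). Also among the 8, the plakophilin Pkp3 gave -0.23 (adjusted p = 0.672) and Pkp4, which binds classical cadherins as well as desmosomes, gave 0.14 (adjusted p = 0.786).

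Of 20 junction and actin partners 2 passed, both higher. Actn1 encodes alpha-actinin, which crosslinks actin filaments and binds alpha-catenin. It gave 8.86, 8.67 and 8.75 on the WT arrays and 9.50, 9.65 and 9.72 on the IkL/L arrays, a rise of 0.87 or 1.82-fold (1.54 to 2.15, limma, adjusted p = 0.0158). Its other probe sets, at or below the medians, gave -0.03 and 0.17 with overlapping groups. Lima1 encodes EPLIN, which binds actin and alpha-catenin. It gave 5.39, 5.47 and 5.57 in WT and 6.19, 6.66 and 6.60 in IkL/L, a rise of 1.01 or 2.01-fold (1.61 to 2.51, limma, adjusted p = 0.0271). Of its 4 other probe sets 1422499_at (0.64) and 1450629_at (0.82) lay apart in the same direction, 1425654_a_at (0.10) overlapped, and 1435726_at, well below the medians, lay apart in the lower direction (-0.32), none of them past the threshold. The median difference of the 20 genes was 0.16, the highest of the 9 lists. Before adjustment 6 of the 20 were higher and 2 lower at p under 0.05 (limma). The 2 lower were Nectin1 (-0.32) and Afdn (-0.42), named after their values were seen.

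Some partners outside the naming rule are given for their role. Rac1 and Rhoa are GTPases that p120 catenin acts on, Zbtb33 encodes Kaiso, a repressor that p120 binds in the nucleus, and Plekha7 encodes a junction protein that binds p120. Rac1 lay apart with 11.37, 11.20 and 11.36 on the WT arrays and 11.63, 11.54 and 11.75 on the IkL/L arrays, a difference of 0.33 that did not pass (limma, adjusted p = 0.353). Rhoa (-0.13), Zbtb33 (-0.17) and Plekha7 (0.29) overlapped, with adjusted p of 0.838, 0.816 and 0.665 in limma.

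Of 7 desmosome partners of plakoglobin 0 passed (limma, p under 0.05 before adjustment for 1 higher and 1 lower), and 5 lay below the medians on all arrays. The desmosomal cadherin Dsg2, singled out after its values were seen, gave 4.91, 4.81 and 4.86 in WT and 5.75, 6.23 and 5.16 in IkL/L, a difference of 0.85 (limma, adjusted p = 0.277). Of 11 genes that cut or repress cadherins 0 passed, though before adjustment 2 were higher and 1 lower at p under 0.05 (limma). Psen2, a gamma-secretase subunit, gave 0.40 (adjusted p = 0.308) and Zeb1, a repressor of Cdh1, gave -0.34 (adjusted p = 0.415). Zeb2, a repressor of the same family named after its values were seen, ran the other way at 0.52 with groups that lay apart (limma, adjusted p = 0.468).

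The Wnt side of the pathway held 1 call. Of 12 genes of the complex that marks beta-catenin for destruction 0 passed, though 1 was higher at p under 0.05 before adjustment (limma). Amer1, which brings the complex to the membrane, gave 0.34 (adjusted p = 0.552) and the deubiquitinase Usp34 gave -0.17 (adjusted p = 0.673). Of 17 Wnt receptors and transducers 0 passed, with 1 higher and 0 lower before adjustment, and the Frizzled receptors Fzd7 and Fzd5 gave 0.47 (adjusted p = 0.304) and 0.34 (adjusted p = 0.635). Of 16 nuclear partners 0 passed, with 0 higher and 3 lower before adjustment. The corepressor Tle4 gave -0.45 (adjusted p = 0.177) and the acetyltransferase Ep300 gave -0.37 (adjusted p = 0.237), each lower on every IkL/L array than on any WT array.

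Of 14 genes known as targets of beta-catenin 1 passed. Id2, an inhibitor of basic helix-loop-helix factors that many signals regulate, gave 6.17, 6.10 and 6.49 on the WT arrays and 7.08, 7.42 and 7.25 on the IkL/L arrays, a rise of 0.99 or 1.99-fold (1.59 to 2.49, limma, adjusted p = 0.0297). Its other probe sets lay below the medians and gave 0.26 and -0.02. Znrf3, a ligase that removes Frizzled receptors, ran the other way at -0.75 without passing (limma, adjusted p = 0.0841). Axin2, the target most often used as a readout of Wnt signalling and named here for that role, gave 5.43, 5.63 and 5.45 in WT and 5.58, 5.33 and 5.29 in IkL/L, a difference of -0.10 with overlapping groups (limma, adjusted p = 0.861).

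**Figure D4:**
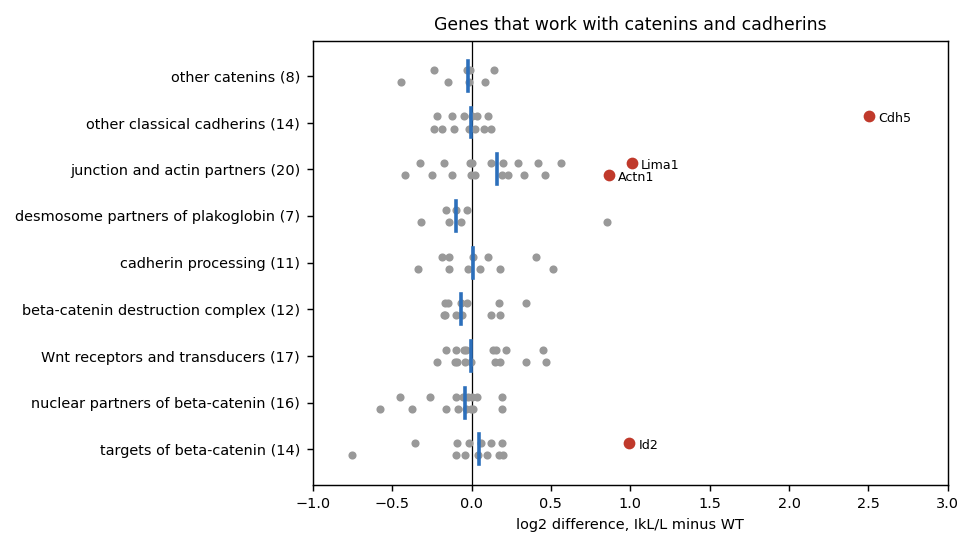
Differences of the genes that work with catenins and cadherins, by list. The horizontal axis is the log2 difference, IkL/L minus WT, each point is a gene with the number measured in brackets, blue bars are list medians, and red points with names passed the test. The 4 red points are Cdh5 at 2.50, Lima1 at 1.01, Id2 at 0.99 and Actn1 at 0.87, and the medians lie between -0.10 and 0.16. The size for Cdh5 is uncertain, since its WT values lie below the array medians. Vertical offsets within a list only separate the points.

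The calls of 3 of these 4 genes were lost in most fits that left out an array, and when probe sets were averaged. Their differences with an array left out stayed at 0.82 to 0.93 for Actn1, 0.92 to 1.15 for Lima1 and 0.91 to 1.11 for Id2. Cdh5 passed with each of the 6 arrays left out (2.33 to 2.68), whereas Actn1 passed in 2 of the 6 fits (without WT 2 and without WT 3), Lima1 in 2 (without WT 3 and without IkL/L 1) and Id2 in 1 (without WT 3). Without a given array, 1 to 4 of the 117 genes were called. With the average of its probe sets, Actn1 gave 0.34 (limma, adjusted p = 0.192), Lima1 0.45 (adjusted p = 0.0688) and Id2 0.41 (adjusted p = 0.137), none of which passed, and Cdh5 gave 1.35 and passed (adjusted p = 0.000742).

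Genes listed as markers of other cell types differed between the same arrays as Ctnnd1. The lists are not exclusive to those cell types: the study counts Vwf, here on the megakaryocyte list, among genes that function in stem and progenitor cells. Per the study's methods, cells with B220, CD11b, Gr1 or Ter119 were depleted and gated out and live Sca1+ c-Kit+ cells were sorted. Summed levels, the log2 of the sum of the linear values of a list, were 9.60 to 10.12 in WT and 10.78 to 11.70 in IkL/L for 6 erythroid markers. All 6 lay apart in the higher direction and 1 passed, the water channel Aqp1 (1.60, limma, adjusted p = 0.0425). The other erythroid genes nearest to passing were Car1, a carbonic anhydrase (1.65, adjusted p = 0.0507), and the transcription factor Klf1 (1.01, adjusted p = 0.143). For 7 megakaryocyte markers the levels were 11.07 to 11.60 and 11.97 to 12.34, with 2 called higher, the integrin Itgb3 (1.85, adjusted p = 0.00878) and Vwf (1.73, adjusted p = 0.0154), and Treml1 gave 0.75 (adjusted p = 0.083). For 5 basophil and mast cell markers they were 9.74 to 10.10 and 10.95 to 11.20, with 1 called higher, the protease Mcpt8 (2.47, adjusted p = 0.00306). The summed levels of the LSK markers were lower in IkL/L without overlap, at 13.328 to 13.589 in WT and 13.122 to 13.325 in IkL/L.

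Endothelial markers bear on Cdh5, which is on that list itself. The list means did not overlap, at 5.76 to 6.11 in WT and 6.57 to 6.79 in IkL/L, and 2 of 7 passed, Cdh5 and the receptor Tek (1.05, adjusted p = 0.0171). Before adjustment 4 of the 7 were higher and 1 lower at p under 0.05 (limma). The lower gene was Egfl7, named after its values were seen, with a mean of 10.02 in WT and 9.54 in IkL/L (-0.48, limma, adjusted p = 0.242). Egfl7 had the highest values of the list, and the summed levels, in which it weighs most, overlapped at 10.13 to 10.51 and 10.22 to 10.46. Tie1 gave 1.22 without passing (limma, adjusted p = 0.208). Epithelial markers bear on Cdh1 and the desmosome genes: their summed levels were 8.65 to 9.25 and 9.79 to 10.28, and 0 of 5 passed, though 2 were higher at p under 0.05 before adjustment (limma). Krt18 gave 1.24 (adjusted p = 0.0925), Krt8 0.47 (adjusted p = 0.481) and Cldn4 -0.13 (adjusted p = 0.838), and Cldn4 lay below the medians on all arrays. Krt18 had the highest values of the list, while Epcam, above the medians on all arrays, gave -0.03 and Krt19, below them, gave -0.0015, which was also the median of the list; Epcam and Krt19 were named after their values were seen. Of 8 stromal markers 0 passed, with 0 higher and 3 lower before adjustment, and Col1a1 gave -1.43 (limma, adjusted p = 0.302). The stromal levels were 8.78 to 10.81 in WT and 8.57 to 9.01 in IkL/L. Of 4 markers of lineage-positive blood cells 0 passed, with 0 of either direction before adjustment in limma, at 7.18 to 7.45 and 7.26 to 7.48. The part of any of these cell types in the differences of Ctnnd1, Cdh5, Actn1, Lima1 and Id2 was not tested.

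**Figure D5:**
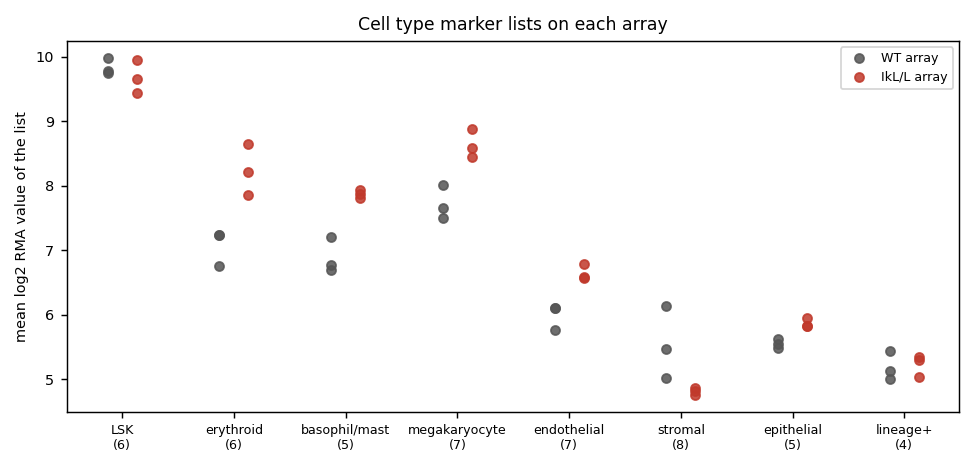
Marker lists of LSK cells and of other cell types on each array. The vertical axis is the mean log2 RMA value of the markers measured, whose number stands in brackets, and grey and red points are the 3 WT and 3 IkL/L arrays. The erythroid means run from 6.75 to 7.24 in WT and from 7.86 to 8.65 in IkL/L, while the LSK means overlap at 9.75 to 9.99 and 9.43 to 9.95. The summed LSK levels, not drawn here, did not overlap and were lower in IkL/L.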

How the data were processed

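LSK cells were profiled on Affymetrix mouse genome arrays, 3 WT and 3 IkL/L. Deposited values were on a log2 scale after RMA by the authors, a method of background correction, quantile normalization and summary over probes. RMA and R 2.8 are named in the processing notes of the submitters, and the study's methods state normalization together with thymocyte arrays, which the values neither show nor contradict. A shared distribution removes a change that affects most genes alike. The annotation gave 1 gene for 34945 probe sets, several for 932, and did not list 9160. Symbols of 34741 were updated by Entrez number in a RefSeq table (GRCm38.p6), and 204 kept theirs.

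All 45037 probe sets entered the model of limma 3.58.1 (R version 4.3.3, lmFit, then eBayes, genotype as the only term, two-sided, Benjamini-Hochberg over all probe sets, threshold 0.05), after the code was tested on simulated data. A gene was read from its single-gene probe set with the highest mean. Members and lists were chosen with earlier results of these data known.

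Named were all members, the genes of each list that passed or, where fewer than 2 passed, the 2 with the smallest p among those with a mean of at least 6, at most 3 markers of a list by smallest p, and the 3 genes nearest to a member that passed. In lists with few genes at a mean of 6, fewer were named. Genes named outside this rule are said to be so. Alternatives were another quantile step, median centring of arrays, leaving out dim probe sets, a trended robust variance, array weights, a replicate block, averaging the probe sets of a gene and leaving out each array. The number of arrays limits the precision.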

Additional observations from a re-analysis of the deposited data

How the results depend on the processing

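The count of member genes called, 1, fell to 0 with arrays centred on the median and with a replicate block, and was 0 to 1 with each array left out; the count of member probe sets moved in the same way. The count of pathway genes called, 4, fell to 2 with the replicate block and to 1 where the probe sets of a gene were averaged. It was 1 to 4 with each array left out. With a mean of at least 6 required the count was 2, because that filter removed Cdh5 and Lima1 before the test. Actn1 and Id2 still passed there. Ctnnd1 stayed higher in 14 of 14 alternatives, at 0.55 (mean of its probe sets) to 0.88, and passed in 7, with limma's adjusted p from 0.0355 to 0.203. Under the replicate block it gave 0.79 with an adjusted p of 0.0686, and Actn1 (adjusted p = 0.0724) and Id2 (0.0759) were lost too. Whether same-numbered arrays share a litter, sort or day is not given in the labels. Their deviations from the group means correlated at 0.008, -0.112 and 0.079, beside -0.129 to 0.120 for arrays with different numbers. With 3 arrays per genotype these correlations can neither show nor exclude a shared batch. Ctnnb1, at -0.01 and not called, turned to 0.0044 with median centring, 0.0488 with array weights and 0.22 with the mean of its probe sets, and ran from -0.126 to 0.0555 with each array left out. Cdh2 ran from -0.15 to 0.0213, above 0 without WT 1. The other member genes kept their sign. Over all probe sets 251 were called, against 143 under the replicate block, 57 to 287 with an array left out (57 without WT 1, 143 without WT 2, 67 without IkL/L 1, 142 without IkL/L 2), and 317 of 18193 genes, beside 180 in the main reading, with the mean of probe sets. The causes were not tested. RMA values carry no background call, so levels of Cdh1 and Cdh2 cannot be told from background.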

Other observations

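The spread within a genotype differed between probe sets of the members. The 3 IkL/L arrays spanned 0.00434 for Cdh2 1449244_at, where the WT arrays spanned 0.345, and 0.0244 for Ctnna1 1437807_x_at, where WT spanned 0.173. Ctnnb1 1430533_a_at ran the other way, with 1.29 in IkL/L and 0.165 in WT. Over all probe sets the median SD was 0.140 in WT and 0.127 in IkL/L. These spreads were not tested.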
